A study of Mus musculus with 14 samples.

Results

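The 35 genes described here are products and markers of fibroblasts and mural cells, the pericytes and smooth muscle cells that wrap blood vessels, together with genes of the extracellular matrix. They were selected by a list of gene symbols that was drawn up with earlier results of these data known, and each of the 35 was found once among the 23286 genes of the deposited kidney tables. By role they are 5 fibrillar collagen genes, 2 basement membrane collagen genes, 3 collagen VI genes, 9 matrix glycoprotein and proteoglycan genes, 2 cross-linking enzymes, 1 growth factor, 3 receptors, 3 surface proteins, 1 signalling regulator and 6 contractile or filament proteins. RNA of whole kidneys was sequenced in bulk from mice aged 9 weeks, 5 h after ischemia-reperfusion (IR) injury, in which the blood supply is stopped and then restored, or after sham surgery. The 12 libraries form 4 groups of 3, which are VE-PTPiKO IR, VE-PTPiKO sham, Control IR and Control sham. VE-PTPiKO is the submitters' name of the genotype that targets VE-PTP, the product of Ptprb, a phosphatase of endothelial cells whose substrates include the receptor Tie2. The labels also carry sample codes that they do not explain, and the code of Control IR replicate 1 is outside the narrow run of numbers that the other 11 libraries share. They do not give the sex or strain of these mice, the alleles carried by Control mice, what drives the deletion, or whether each library is a separate animal. The p-values therefore measure only the spread between these libraries, which may be technical. A further 2 samples of single cells, from kidneys 24 h after IR, were not analysed here.

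In the kidney, fibroblasts and pericytes lie between tubules and capillaries and build the interstitial matrix of fibrillar collagens, fibronectin and proteoglycans. Collagen chains are assembled, secreted and then joined by the lysyl oxidases, copper enzymes that make collagen and elastin fibres insoluble. Endothelial cells release PDGF-B, which acts on PDGFR-beta of mural cells and holds them to the vessel wall, and after injury the same cells are a known source of scar-forming myofibroblasts. Several of the genes are also made by other kidney cells: Pdgfb, Mcam and Col4a1 by endothelial cells, and Vim by podocytes, endothelial cells and injured tubule cells. In bulk tissue, fewer cells of a type and less RNA per cell cannot be told apart.

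All 35 genes had reads and passed the low-value filter in every comparison. In reads per kilobase of exon scaled to library size (RPKM), averaged over the 12 libraries, the highest levels belonged to Col4a1 (132.9), Sparc (95.4), Col4a2 (76.0) and Mgp (53.3). These encode both main chains of basement membrane collagen IV, a collagen-binding matrix protein and an inhibitor of calcification. The smooth muscle genes Tagln (34.3) and Acta2 (22.5) came next on this scale, and Thy1 (0.236), Postn (0.689) and Lum (0.872) were lowest. Fibroblast markers (Pdgfra, Dcn, Lum and Col1a1) and mural markers (Pdgfrb, Rgs5, Notch3, Cspg4, Acta2 and Myh11) were detected in all 12 libraries, Lum being the lowest of these at 17.1 to 60.5 normalised read counts. A normalised read count is the number of reads on a gene divided by the scaling factor of the library, and values below are on this scale unless another is named. Thy1 ranged from 5.6 to 22.9, so that a few reads decide its values. Of the exon length of Tagln, 67.9% overlaps the antisense gene Gm48529, and of that of Fbn1, 20.1% overlaps Gm9913 on the opposite strand. Values of both are uncertain, because the sources used here do not say whether reads were counted by strand.

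Between 15427887 and 21296392 reads were assigned to genes in a library, and the 35 genes took 0.317% to 0.47% of them in VE-PTPiKO IR, 0.323% to 0.348% in VE-PTPiKO sham, 0.276% to 0.447% in Control IR and 0.225% to 0.332% in Control sham. Ptprb, the targeted gene, stood at 1314, 1676.5 and 2114 in VE-PTPiKO IR against 2039.7, 2156 and 2721 in Control IR, and these groups overlapped. It stood at 2068, 2852 and 3049 in VE-PTPiKO sham against 3061, 4363 and 3269 in Control sham, with every VE-PTPiKO library lower. Malat1, a nuclear RNA, took 1.962% of reads in VE-PTPiKO IR replicate 3, 1.152% in VE-PTPiKO sham replicate 2 and 1.02% in Control sham replicate 2, against 0.327% to 0.564% in the other libraries. In all libraries the deviation of a gene from its group mean was set against exon length across genes, as a description. Spearman's rho was 0.48, 0.31 and 0.47 in these 3 libraries, 0.26 in Control IR replicate 3 and 0.19 in VE-PTPiKO sham replicate 3, and between −0.44 and −0.08 in the other libraries. The 35 genes are long, with a median exon length of 6099 bases against 4172 bases for all genes tested. Markers of injured tubules rose after IR, for 5 of 6 genes in VE-PTPiKO and 6 of 6 in Control (limma, adjusted p under 0.05). Their summed level was 9893 to 13487 in VE-PTPiKO IR against 1957 to 2729 in VE-PTPiKO sham, and 11532 to 14042 in Control IR against 1939 to 2697 in Control sham. Their part in the results below was not tested.

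Promoter windows of RefSeq (GRCm38.p6, the mm10 build), running from 250 bases before a gene's start to 50 bases after it, were found for 21 of the 35 genes. Those of Vim and Mcam are printed because Vim rose after IR in both genotypes and Mcam in Control, and those of Col4a1 and Col4a2 because the genes lie head to head on chromosome 8 and their windows share 78 bases. Capitals mark matches on either strand to the GC box GGGCGG, to TATAAA and to CCAAT.
Vim, chr2:13574061-13574360, plus strand: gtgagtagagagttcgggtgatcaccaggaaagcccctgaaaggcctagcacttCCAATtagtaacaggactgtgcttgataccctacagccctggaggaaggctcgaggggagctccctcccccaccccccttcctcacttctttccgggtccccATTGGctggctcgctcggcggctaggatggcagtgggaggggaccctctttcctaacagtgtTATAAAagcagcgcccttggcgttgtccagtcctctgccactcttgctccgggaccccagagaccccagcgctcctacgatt
Mcam, chr9:44134408-44134707, plus strand: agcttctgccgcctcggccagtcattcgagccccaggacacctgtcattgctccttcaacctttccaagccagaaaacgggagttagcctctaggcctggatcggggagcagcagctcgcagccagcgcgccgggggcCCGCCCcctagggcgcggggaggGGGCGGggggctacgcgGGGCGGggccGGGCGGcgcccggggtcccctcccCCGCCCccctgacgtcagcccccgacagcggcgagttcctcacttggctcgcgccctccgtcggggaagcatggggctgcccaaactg
Col4a1, chr8:11312777-11313076, minus strand: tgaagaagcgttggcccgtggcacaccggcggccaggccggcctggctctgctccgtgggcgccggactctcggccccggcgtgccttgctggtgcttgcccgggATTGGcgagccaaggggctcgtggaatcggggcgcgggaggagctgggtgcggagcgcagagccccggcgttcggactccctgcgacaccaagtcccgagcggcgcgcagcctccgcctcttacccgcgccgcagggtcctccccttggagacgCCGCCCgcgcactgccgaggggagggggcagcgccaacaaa
Col4a2, chr8:11312555-11312854, plus strand: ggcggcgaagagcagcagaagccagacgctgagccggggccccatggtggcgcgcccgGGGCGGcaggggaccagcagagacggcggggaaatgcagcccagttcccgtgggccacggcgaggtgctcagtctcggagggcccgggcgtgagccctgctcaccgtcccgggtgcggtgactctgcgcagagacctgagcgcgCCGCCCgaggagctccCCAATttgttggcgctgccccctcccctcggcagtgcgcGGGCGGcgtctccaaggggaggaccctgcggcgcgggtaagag

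The Vim window held 1 TATAAA match, its first base at −32 from the start, and 2 CCAAT matches, whereas the Mcam window held 5 GC boxes and neither of the other motifs. Col4a1 had 1 GC box and 1 CCAAT match, and Col4a2 had 3 GC boxes and 1 CCAAT match. A GC box was found in 11 of the 21 genes (35.7% of all 32851 windows held one), CCAAT in 7 (37.4% of windows) and TATAAA in 3 (13.6%). The AP-1 motif TGANTCA was found in 1 gene, Col6a1 (7.81% of windows), and the CArG box, the motif of serum response factor, in 0 of 21 (1.63% of windows). Only the strict CArG form CCWWWWWWGG, with W as A or T, was searched, so forms with a G or C in the core could not be found. Both strands were searched, and a match to one motif may overlap a match to another. The shares over all 32851 windows were counted before windows on chromosome 18 were left out. All matches describe the letters of the windows only.

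The first question was how these genes responded to IR in each genotype. In VE-PTPiKO kidneys 1 of the 35 genes rose, Vim, and 1 fell, Lox, where 1.92% of all 16401 genes tested were called higher and 0.793% lower (limma on log2(value + 1), Benjamini-Hochberg adjusted p under 0.05). In Control kidneys 4 rose, Pdgfb, Vim, Mcam and Loxl1, and 1 fell, Lox, where 7.48% of all 16257 genes were called higher and 4.02% lower. The median log2 fold change over the 35 genes was 0.08 in VE-PTPiKO, with 19 above 0, beside −0.01 over all genes. In Control it was 0.30, with 28 above 0, beside −0.01 over all genes. The counts and medians moved with single libraries. With all libraries, 445 of all genes were called in VE-PTPiKO and 1870 in Control. In VE-PTPiKO 0 of the 35 genes were called without VE-PTPiKO sham replicate 3 (126 of all genes), and 5 without VE-PTPiKO IR replicate 3 (1925 of all genes). Of the 35 genes only Vim was called without VE-PTPiKO IR replicate 1 (194 of all genes), VE-PTPiKO IR replicate 2 (168) or VE-PTPiKO sham replicate 2 (170). In Control 8 of the 35 genes were called without Control IR replicate 1 (1380 of all genes). The VE-PTPiKO median was −0.14 without VE-PTPiKO IR replicate 3, 0.04 without VE-PTPiKO sham replicate 3 and 0.19 without VE-PTPiKO IR replicate 1. The Control median was 0.55 without Control sham replicate 2, 0.50 without Control IR replicate 1, 0.09 without Control IR replicate 3 and 0.13 without Control sham replicate 3. All 3 IR libraries lay above all 3 sham libraries for 7 of the 35 genes in VE-PTPiKO (10.6% of all genes) and for 5 in Control (15.8%). The reverse held for 2 in VE-PTPiKO, Eln and Lox (10.1% of all genes), and for 1 in Control, Lox (13.7%). In the authors' deposited table, which rests on DESeq2, 5 of the 35 genes passed adjusted p under 0.05 in VE-PTPiKO (Pdgfb, Vim, Mcam and Loxl1 higher, Lox lower; 11.3% of 13732 genes with an adjusted p). In the authors' deposited table for Control, 8 passed, these 5 together with Col4a1, Sparc and Mgp, all higher (21.1% of 13664 genes).

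**Figure D1:**
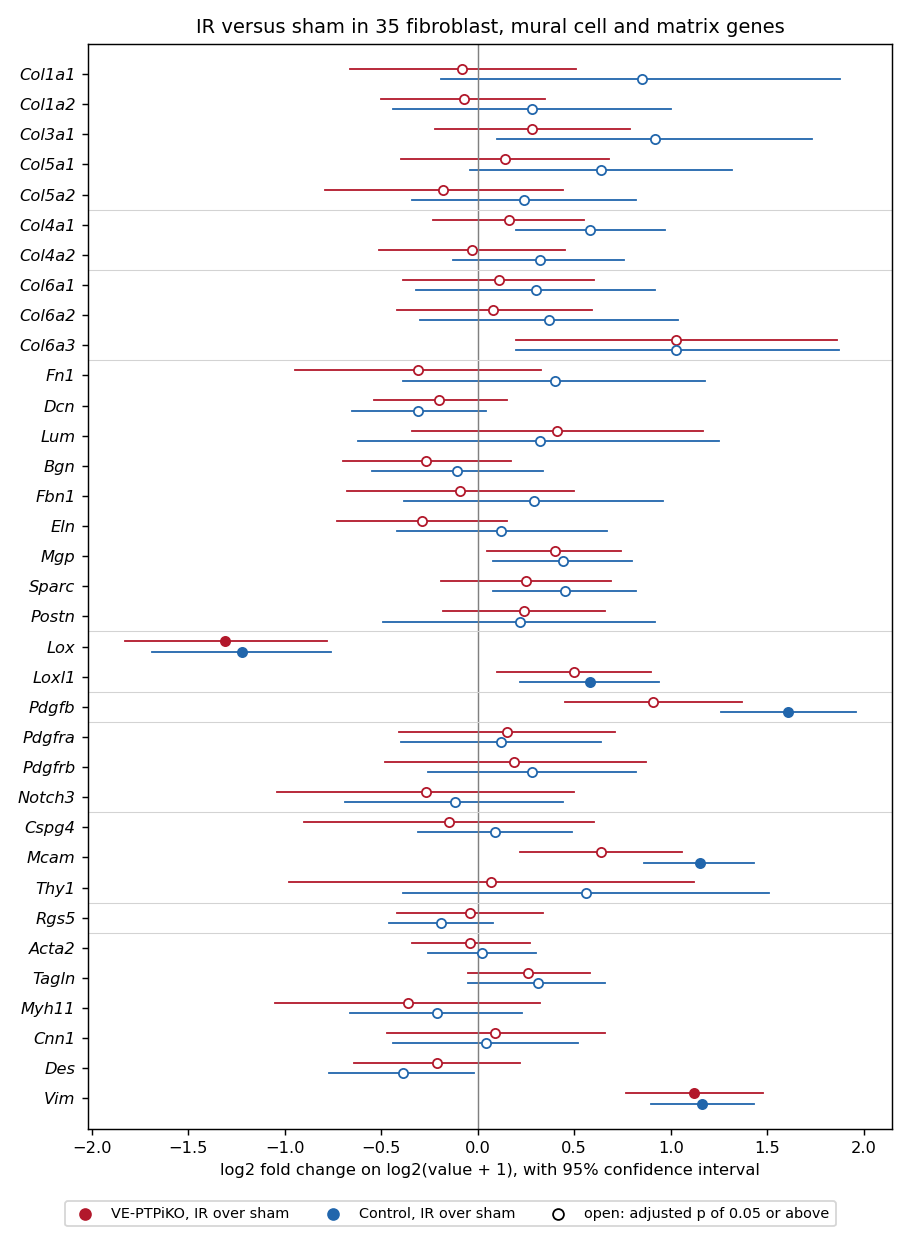
Log2 fold change, IR over sham, of the 35 genes (rows, grouped by role) on the log2(value + 1) scale, with 95% confidence intervals. VE-PTPiKO is red and above Control, which is blue; filled points passed adjusted p under 0.05 (2 genes in VE-PTPiKO, 5 in Control). Vim and Lox lie farthest from 0 in VE-PTPiKO, and Pdgfb in Control.

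Pdgfb encodes the B chain of platelet-derived growth factor, the ligand of mural cells. It stood at 742, 574 and 513 in VE-PTPiKO IR, against 406, 285 and 284 in VE-PTPiKO sham. In Control IR it stood at 764, 889.9 and 718, against 236, 322 and 226 in Control sham. Every IR library was above every sham library of its genotype. The group means were 609.8 ± 118 in VE-PTPiKO IR, 324.9 ± 70.5 in VE-PTPiKO sham, 790.6 ± 88.9 in Control IR and 261.4 ± 53.1 in Control sham (SD, n = 3 each). The rise in Control was 3.05-fold (log2 1.61 ± 0.16, SE; limma adjusted p = 0.000109). In VE-PTPiKO the log2 fold change was 0.91 ± 0.20 (SE; limma adjusted p = 0.0546), just outside the threshold. It passed there without VE-PTPiKO IR replicate 3 (limma adjusted p = 0.0134), without VE-PTPiKO sham replicate 1 (0.0325), without the 2 libraries of this genotype high in Malat1 (0.0456) and in DESeq2 (0.00281). The difference between both responses had a log2 value of −0.70 ± 0.27 (SE; 95% interval −1.28 to −0.11; limma adjusted p = 0.999), so a smaller response in VE-PTPiKO did not pass the test over all genes.

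The receptors did not pass the test in either genotype. Pdgfrb, the receptor of PDGF-B on mural cells, stood at 943, 1099.9 and 2220.0 in VE-PTPiKO IR, against 961.5, 1412 and 1139 in VE-PTPiKO sham, and the groups overlapped. It stood at 932, 977 and 1572 in Control IR, against 738.5, 1376 and 790.1 in Control sham, again with overlap. Pdgfra, the PDGF receptor of fibroblasts, had log2 fold changes of 0.15 ± 0.25 in VE-PTPiKO and 0.12 ± 0.23 in Control (SE). Notch3, the Notch receptor of vascular smooth muscle, had −0.27 ± 0.34 in VE-PTPiKO and −0.12 ± 0.26 in Control (SE). VE-PTPiKO IR replicate 3 held the highest value of its group for all 3 receptors. The other PDGF ligand genes were Pdgfa, Pdgfc and Pdgfd. Of these 3, 1 rose in each genotype and 0 fell. Pdgfa, which encodes the A chain, rose 2.77-fold in VE-PTPiKO and 2.84-fold in Control (limma adjusted p = 0.00127 and 9.06e-05).

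Among surface proteins and regulators of mural cells, Mcam (CD146, an adhesion molecule of pericytes and endothelium) stood at 513, 552 and 768 in VE-PTPiKO IR, against 418, 408 and 336 in VE-PTPiKO sham. It stood at 743, 874 and 733 in Control IR, against 318, 388 and 355 in Control sham. In both genotypes the IR libraries lay above the sham libraries without overlap. The rise in Control was 2.22-fold (log2 1.15 ± 0.13, SE; limma adjusted p = 0.000238), and the means were 783.3 ± 78.7 in Control IR and 353.5 ± 34.9 in Control sham (SD, n = 3 each). In VE-PTPiKO the log2 fold change was 0.64 ± 0.19 (SE; limma adjusted p = 0.128), and it passed in DESeq2 (0.0356) and in 1 model of all 12 libraries (0.0311). The difference between the responses was −0.51 ± 0.23 on the log2 scale (SE; 95% interval −1.0 to −0.01; limma adjusted p = 0.999). Cspg4, the NG2 proteoglycan of pericytes, had log2 fold changes of −0.15 ± 0.33 in VE-PTPiKO and 0.09 ± 0.18 in Control (SE). Rgs5, a regulator of G protein signalling that marks pericytes, had −0.04 ± 0.17 in VE-PTPiKO and −0.19 ± 0.12 in Control (SE). Thy1, a surface glycoprotein of fibroblasts, had 0.07 ± 0.46 in VE-PTPiKO and 0.56 ± 0.43 in Control (SE). None of these 3 genes passed the test in either genotype, and their groups overlapped.

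Vim, the intermediate filament vimentin of mesenchymal cells, rose in both genotypes. It stood at 1509, 1552.5 and 1345 in VE-PTPiKO IR, against 793.5, 568 and 680.1 in VE-PTPiKO sham. In Control IR it stood at 1284, 1482 and 1496, against 579, 620.3 and 709 in Control sham. The lowest IR library, at 1284, was above the highest sham library, at 793.5, over both genotypes together. The rise was 2.18-fold in VE-PTPiKO (log2 1.12 ± 0.16, SE; limma adjusted p = 0.00739) and 2.24-fold in Control (log2 1.16 ± 0.12, SE; limma adjusted p = 0.000142). In Control it passed in all 17 alternatives, and in VE-PTPiKO in 16 of 17, with an adjusted p of 0.0552 when VE-PTPiKO sham replicate 3 was left out.

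The smooth muscle contractile genes did not follow Vim past the threshold. Acta2, smooth muscle actin, stood at 844.5, 974 and 955 in VE-PTPiKO IR, against 1048, 915 and 885 in VE-PTPiKO sham. It stood at 706, 903 and 854 in Control IR, against 745, 881 and 799 in Control sham. Its log2 fold changes were −0.04 ± 0.14 in VE-PTPiKO (95% interval −0.34 to 0.27) and 0.02 ± 0.13 in Control (−0.26 to 0.30), both with the SE. Those of Tagln, the actin-binding transgelin, were 0.26 ± 0.14 and 0.31 ± 0.16 (VE-PTPiKO, then Control, SE). In the same order, Cnn1, which encodes calponin, had 0.09 ± 0.25 and 0.04 ± 0.22, and Myh11, smooth muscle myosin, had −0.36 ± 0.30 and −0.21 ± 0.20. Des, the muscle filament desmin, had −0.21 ± 0.19 and −0.39 ± 0.17, and its fall passed in Control when Control sham replicate 3 was left out (log2 −0.57, limma adjusted p = 0.0444). The residual SD within groups, as a median over the 6 contractile and filament genes, was 0.210 in VE-PTPiKO and 0.197 in Control on the log2 scale. Over all genes with a mean of at least 100 it was 0.215 in VE-PTPiKO and 0.165 in Control.

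Of the cross-linking enzymes, Lox fell in both genotypes and Loxl1 rose in Control. Lox, lysyl oxidase, stood at 302, 379.7 and 478 in VE-PTPiKO IR, against 688, 1126 and 1084 in VE-PTPiKO sham. It stood at 243.5, 255 and 443 in Control IR, against 689, 812 and 632.5 in Control sham. No IR library reached a sham library in either genotype. The fall was 2.47-fold in VE-PTPiKO (log2 −1.31 ± 0.23, SE; limma adjusted p = 0.0199) and 2.33-fold in Control (log2 −1.22 ± 0.21, SE; limma adjusted p = 0.00367). In Control it passed in all 17 alternatives. In VE-PTPiKO it missed the threshold without VE-PTPiKO IR replicate 1 (0.0804), without VE-PTPiKO IR replicate 2 (0.0879), without VE-PTPiKO sham replicate 2 (0.101) and without VE-PTPiKO sham replicate 3 (0.13), with a fold of at least 2.21 in each. Loxl1, a relative of Lox that acts on elastic fibres, stood at 392, 446 and 568 in VE-PTPiKO IR, against 335, 359 and 292 in VE-PTPiKO sham. It stood at 379, 462 and 443 in Control IR, against 289, 347 and 233 in Control sham, and the groups did not overlap in either genotype. It rose 1.49-fold in Control (log2 0.58 ± 0.16, SE; limma adjusted p = 0.0446). The adjusted p ran from 0.0582 to 0.198 when any one of Control IR replicates 1, 2 and 3 or Control sham replicates 1 and 3 was left out, and it was 0.0569 in 1 model of all 12 libraries. In VE-PTPiKO its log2 fold change was 0.50 ± 0.18 (SE; limma adjusted p = 0.22).

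**Figure D2:**
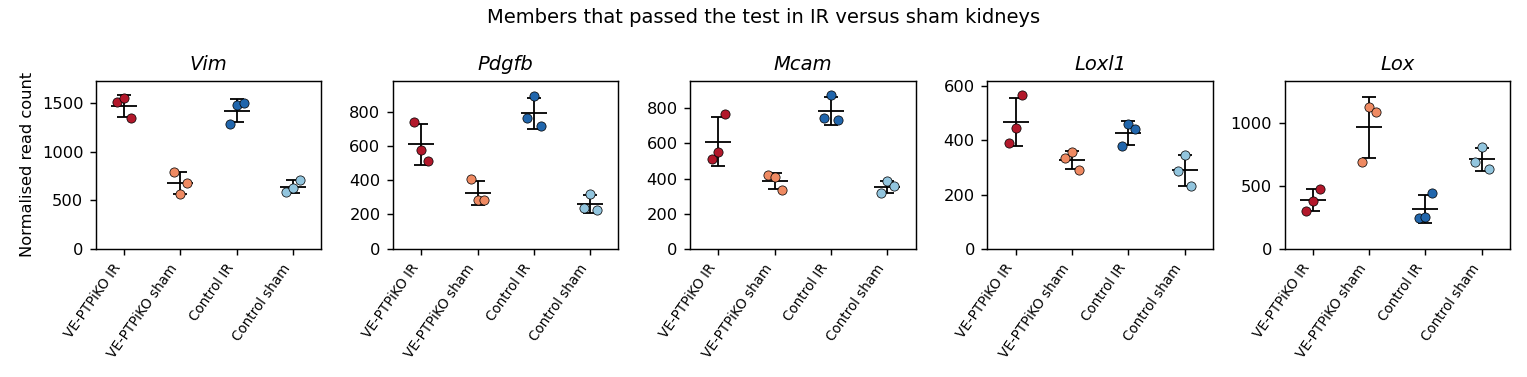
Normalised read counts (vertical axes from 0) of Vim, Pdgfb, Mcam, Loxl1 and Lox in each library of the 4 groups, with the group mean and SD as bars. Vim lies between 1284 and 1552.5 in the 6 IR libraries and between 568 and 793.5 in the 6 sham libraries; Lox is lower in IR than in sham in both genotypes.

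None of the 10 collagen genes passed the test in either genotype. The values of many varied widely between libraries of a group, though mostly less so in VE-PTPiKO sham, and those of Col3a1 in VE-PTPiKO IR were close. Col1a1, a chain of collagen I, stood at 557, 596 and 1005 in VE-PTPiKO IR, against 892, 549 and 805 in VE-PTPiKO sham. It stood at 384.5, 648 and 1233 in Control IR, against 329, 788 and 204 in Control sham. Control IR replicate 3 and Control sham replicate 2 were the high libraries, and the groups overlapped in both genotypes. Its log2 fold changes were −0.08 ± 0.26 in VE-PTPiKO and 0.85 ± 0.47 in Control (SE; limma adjusted p = 0.927 and 0.31). Col3a1, the chain of collagen III, stood at 2375, 2323 and 2314 in VE-PTPiKO IR, against 2793, 1422 and 1794 in VE-PTPiKO sham. It stood at 1095, 1827 and 3769 in Control IR, against 959, 1513 and 776 in Control sham. Its log2 fold change in Control was 0.92 ± 0.37 (SE; limma adjusted p = 0.153), and without Control IR replicate 1, the lowest of its group, it was 1.34 with an adjusted p of 0.0259. In VE-PTPiKO it was 0.28 ± 0.22 (SE; limma adjusted p = 0.623).

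The other fibrillar collagen genes were Col1a2, a chain of collagen I, and Col5a1 and Col5a2, chains of collagen V, which sets fibril width. In VE-PTPiKO their log2 fold changes ran from −0.18 to 0.14 and in Control from 0.24 to 0.64. Col5a1 passed in Control when Control sham replicate 2 was left out (log2 1.03, limma adjusted p = 0.0171). The microfibrillar collagen VI genes Col6a1 and Col6a2 had log2 fold changes of 0.11 ± 0.22 and 0.08 ± 0.22 in VE-PTPiKO, and 0.30 ± 0.28 and 0.37 ± 0.30 in Control (SE). Col6a3, the third chain, stood at 1277, 1509 and 3693 in VE-PTPiKO IR, against 1207, 984 and 705 in VE-PTPiKO sham. It stood at 942, 1804 and 1636 in Control IR, against 958, 1028 and 330.1 in Control sham. The VE-PTPiKO groups did not overlap, and VE-PTPiKO IR replicate 3, the library highest in Malat1, was far above the others. The log2 fold change was 1.03 ± 0.37 in VE-PTPiKO and 1.03 ± 0.38 in Control (SE; limma adjusted p = 0.221 and 0.115), and in VE-PTPiKO it passed in DESeq2 (0.0293).

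Basement membrane collagen IV had the largest counts. Col4a1 stood at 16559, 17668 and 23535 in VE-PTPiKO IR, against 17354, 15851 and 18047 in VE-PTPiKO sham. It stood at 17151, 19684 and 24017 in Control IR, against 11286, 17022 and 12643 in Control sham. The VE-PTPiKO groups overlapped and the Control groups did not, though the lowest IR library (17151) and the highest sham library (17022) of Control lay close to each other. The log2 fold change in Control was 0.58 ± 0.17 (SE; limma adjusted p = 0.0547). It passed without Control sham replicate 2 (log2 0.75, adjusted p = 0.0118), without Control IR replicate 1 (0.0433) and with a correction for exon length (0.0181). In VE-PTPiKO it was 0.16 ± 0.17 (SE; limma adjusted p = 0.737). For Col4a2, which shares the promoter region printed above, the log2 fold changes were −0.03 ± 0.21 in VE-PTPiKO and 0.32 ± 0.20 in Control (SE; limma adjusted p = 0.967 and 0.388).

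**Figure D3:**
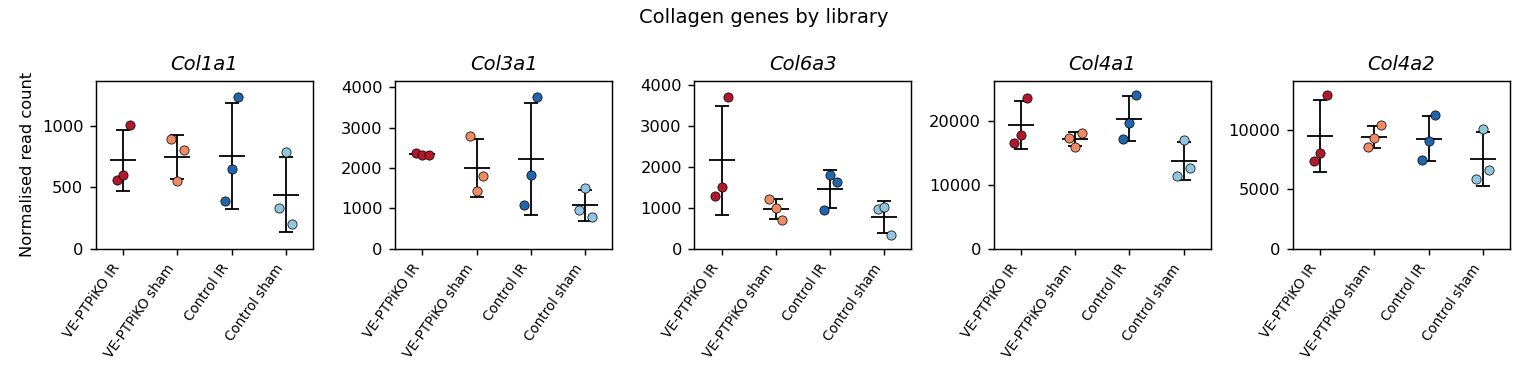
Normalised read counts (vertical axes from 0) of 5 collagen genes in each library of the 4 groups, with the group mean and SD as bars. Control IR replicate 3 reaches 1233 for Col1a1 and 3769 for Col3a1, Control sham replicate 3 is at 204 and 776, and VE-PTPiKO IR replicate 3 reaches 3693 for Col6a3.

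In 3 of the 4 groups at least 8 of the 10 collagen genes had their highest value in the same library. Control sham replicate 2 was the highest of its group for 10 of 10 collagen genes and 29 of the 35 genes, and it was highest for 38.7% of all genes. Control sham replicate 3 was the lowest for 8 of 10 collagen genes (30.6% of all genes). Control IR replicate 3 was the highest for 8 of 10 (34.7% of all genes) and Control IR replicate 1 the lowest for 10 of 10 (37.7%). VE-PTPiKO IR replicate 3 was the highest for 9 of 10 (44.1%) and VE-PTPiKO IR replicate 1 the lowest for 9 of 10 (33.2%). In VE-PTPiKO sham the collagen genes were more spread over the libraries, with replicates 1, 2 and 3 the highest for 6, 1 and 3 of 10 and the lowest for 2, 4 and 4. The residual SD of the 5 fibrillar collagen genes had a median of 0.365 in VE-PTPiKO and 0.629 in Control on the log2 scale, beside 0.215 and 0.165 for all genes with a mean of at least 100. In Control sham, VE-PTPiKO IR and Control IR the library highest for most collagen genes was also the highest of its group in Malat1, though at 0.506% Control IR replicate 3 was within the range of the libraries not high in Malat1. VE-PTPiKO sham replicate 2, at 1.152% the highest of its group in Malat1, was the highest for 1 collagen gene and the lowest for 4. The part of Malat1 or exon length in these values was not tested.

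**Figure D4:**
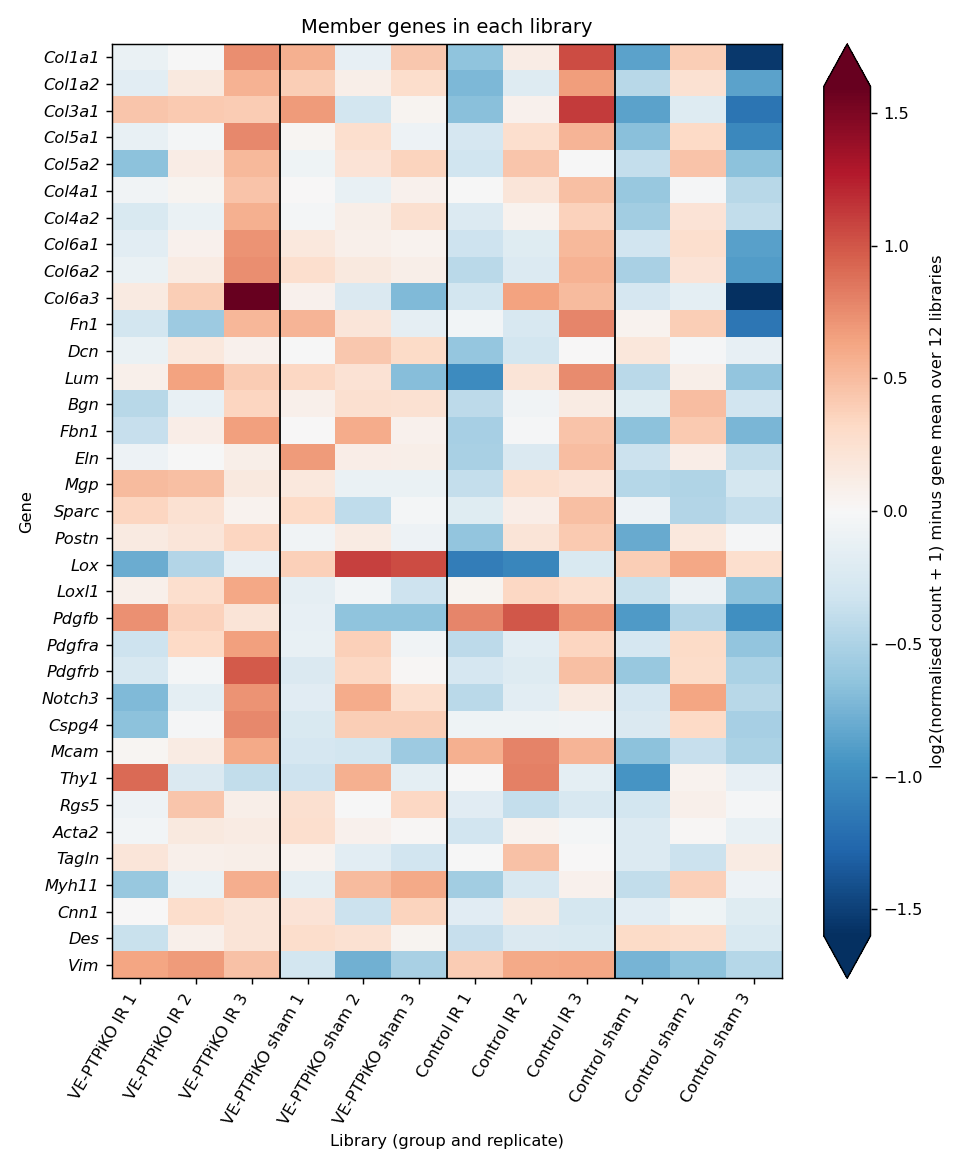
Log2(normalised count + 1) of the 35 genes (rows) in each of the 12 libraries (columns, with the groups divided by black lines), minus the mean of the gene over the 12 libraries; red is higher and blue lower. Vim and Pdgfb are red in IR and Lox blue in IR, while the collagen rows follow libraries, with Control sham replicate 3 the bluest column.

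Among matrix glycoproteins and proteoglycans, 0 of 9 passed the test in either genotype. Fn1, fibronectin, stood at 1101, 904 and 1952 in VE-PTPiKO IR, against 1968.5, 1553 and 1222 in VE-PTPiKO sham. It stood at 1310.3, 1132 and 2319 in Control IR, against 1408.5, 1775 and 606 in Control sham, with overlap in both genotypes. Sparc, a collagen-binding protein, stood at 7923, 7452 and 6498 in VE-PTPiKO IR, against 7848, 4723.7 and 6145 in VE-PTPiKO sham. It stood at 5481, 6762 and 8773 in Control IR, against 5915, 4525 and 4822 in Control sham. Its log2 fold change in Control was 0.45 ± 0.17 (SE; limma adjusted p = 0.122), and it passed without Control IR replicate 1 (log2 0.61, 0.0408). Mgp, matrix Gla protein, had log2 fold changes of 0.40 ± 0.15 in VE-PTPiKO and 0.44 ± 0.16 in Control (SE; limma adjusted p = 0.252 and 0.119). It passed in VE-PTPiKO without VE-PTPiKO IR replicate 3 (log2 0.51, 0.0348) and in Control without Control IR replicate 1 (log2 0.65, 0.0125).

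The small leucine-rich proteoglycans Dcn, Lum and Bgn bind collagen fibrils. Their log2 fold changes in VE-PTPiKO were −0.20 ± 0.15, 0.41 ± 0.33 and −0.27 ± 0.19, and in Control −0.31 ± 0.16, 0.32 ± 0.42 and −0.11 ± 0.20 (SE). Bgn passed as lower in VE-PTPiKO when VE-PTPiKO IR replicate 3 was left out (log2 −0.47, limma adjusted p = 0.0491). Of the elastic fibre genes, Fbn1, which encodes fibrillin of the microfibrils, had −0.09 ± 0.26 in VE-PTPiKO and 0.29 ± 0.30 in Control (SE). Eln, elastin, had −0.29 ± 0.20 in VE-PTPiKO, where its IR libraries at 236, 250.2 and 267 lay below the sham libraries at 402, 269.8 and 268, and 0.12 ± 0.25 in Control (SE; limma adjusted p = 0.55 and 0.826). Postn, periostin, a matrix protein known from wound repair, stood at 114, 119 and 132 in VE-PTPiKO IR, against 99.3, 113 and 97.3 in VE-PTPiKO sham, without overlap (log2 0.24 ± 0.19, SE; limma adjusted p = 0.62). In Control its log2 fold change was 0.22 ± 0.32 (SE; limma adjusted p = 0.752).

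Other genes of the same pathways were read from 8 lists, which were chosen with earlier results of these data known and share none of the 35 genes. Their counts stand beside 1.92% of all genes called higher and 0.793% lower in VE-PTPiKO, and 7.48% higher and 4.02% lower in Control. Of 14 tested matricellular and provisional matrix genes, 3 rose in VE-PTPiKO and 6 in Control, and 0 fell. Cyr61, a secreted target of the YAP pathway, rose 4.08-fold in VE-PTPiKO and 7.35-fold in Control (limma adjusted p = 0.00189 and 4.54e-05). Thbs1, thrombospondin 1, rose 2.99-fold and 3.6-fold in the same order (0.00473 and 0.000543). In Control Wisp1, a Wnt-inducible relative of Cyr61, rose 3.85-fold (limma adjusted p = 0.000445), and Cd44, the hyaluronan receptor, 3.06-fold (0.00151). Wisp1 and Cd44 had fitted rises of 2.18-fold and 2.39-fold in VE-PTPiKO that did not pass (limma adjusted p = 0.131 and 0.0637). Of 17 contractile genes and regulators of serum response factor, 1 rose in VE-PTPiKO and 9 in Control, and 0 fell. The list median was 0.280 in VE-PTPiKO, with 14 above 0, and 0.534 in Control, with 13 above 0. Below 0 in Control were Lmod1 (log2 −0.47 ± 0.22), Mkl2 (−0.24 ± 0.13), Actg2 (−0.12 ± 0.31) and Myl9 (−0.08 ± 0.12, all SE), none of which passed. Vcl, vinculin of focal adhesions, rose 2.47-fold in Control (limma adjusted p = 7.06e-05), and Tpm4, a tropomyosin, rose 1.87-fold in VE-PTPiKO and 2.08-fold in Control (0.0155 and 0.00191). Actg1, cytoplasmic gamma-actin, rose 2.05-fold and Smtn, smoothelin, 1.94-fold in Control (limma adjusted p = 0.0113 and 0.00619). Vcl, Actg1 and Smtn had fitted rises of 1.66-fold, 1.71-fold and 1.36-fold in VE-PTPiKO (limma adjusted p = 0.1, 0.14 and 0.33). Actg1 had a mean of 103 normalised counts, against 28600 for the actin gene Actb, and the reason for its low count was not tested.

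Of 20 TGF-beta signalling genes, 1 rose in VE-PTPiKO and 4 in Control, and 0 fell. The list median was −0.123 in VE-PTPiKO, with 8 above 0, and 0.066 in Control, with 14 above 0. The largest fitted falls did not pass, Smad6 in VE-PTPiKO (log2 −0.84 ± 0.19, SE; limma adjusted p = 0.0599) and Bambi in Control (log2 −0.58 ± 0.24, SE; limma adjusted p = 0.161). Smad3, which carries the signal to the nucleus, rose 1.93-fold in VE-PTPiKO and 2.7-fold in Control (limma adjusted p = 0.0147 and 9.31e-05). In Control Tgif1 and Skil, both repressors of the pathway, rose 2.08-fold and 1.52-fold, and the receptor gene Tgfbr2 rose 1.76-fold (limma adjusted p = 0.00115, 0.00345 and 0.000384). Fitted rises of Tgif1, Skil and Tgfbr2 in VE-PTPiKO were 1.82-fold, 1.2-fold and 1.5-fold (limma adjusted p = 0.0692, 0.371 and 0.0539). Of 17 collagen processing enzymes, 0 passed in VE-PTPiKO and 3 rose in Control, namely Serpinh1, a collagen chaperone (2.44-fold, limma adjusted p = 0.000268), Plod2, a lysyl hydroxylase (1.52-fold, 0.0152), and P4ha1, a prolyl hydroxylase (1.34-fold, 0.0449). Serpinh1, Plod2 and P4ha1 had fitted rises of 1.87-fold, 1.31-fold and 1.2-fold in VE-PTPiKO (limma adjusted p = 0.189, 0.353 and 0.575). Of 13 basement membrane genes other than collagen IV, 0 passed in VE-PTPiKO and 2 rose in Control, the laminin gene Lamc1 (1.77-fold, limma adjusted p = 0.00912) and Col18a1 (1.52-fold, 0.0225). Lamc1 and Col18a1 had fitted rises of 1.31-fold and 1.2-fold in VE-PTPiKO (limma adjusted p = 0.456 and 0.442). Of 11 receptors for collagen and fibronectin, 2 rose in VE-PTPiKO and 3 in Control. The integrin genes Itgb6 and Itga2 rose 3.46-fold and 2.18-fold in VE-PTPiKO (limma adjusted p = 0.00173 and 0.0412) and 3.09-fold and 2.43-fold in Control (6.55e-05 and 0.00834). Ddr1, a collagen receptor kinase of epithelia, rose 1.75-fold in Control (limma adjusted p = 0.000327). Its fitted rise in VE-PTPiKO was 1.43-fold (limma adjusted p = 0.137). Of 15 other fibroblast and pericyte markers, 0 rose in either genotype, 0 fell in VE-PTPiKO and 2 fell in Control. These were Abcc9, a potassium channel subunit of pericytes (1.53-fold, limma adjusted p = 0.0496), and the transcription factor gene Meox2 (4.68-fold, 0.0338), which had a mean of 3.59 normalised counts. Abcc9 had a similar log2 fold change in both genotypes, −0.59 ± 0.23 in VE-PTPiKO (limma adjusted p = 0.265) and −0.61 ± 0.18 in Control (SE). The list median was −0.225 in VE-PTPiKO and −0.006 in Control, with 5 and 7 of the 15 above 0.

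The second question was whether the genotypes differed. Among IR kidneys, VE-PTPiKO against Control, 0 of the 35 genes passed the limma test, as did 0 of all 16339 genes (percent called, 0), while 709 genes had an unadjusted p under 0.05. Over all genes edgeR called 0 and DESeq2 called 1, which was not one of the 35. The median log2 difference over the 35 genes was 0.16, with 28 above 0, beside −0.02 over all genes. It was −0.02 without VE-PTPiKO IR replicate 3 and −0.05 without Control IR replicate 1, and 0.28 without either VE-PTPiKO IR replicate 1 or Control IR replicate 3. Rgs5, at 1302, 1869 and 1469 in VE-PTPiKO IR against 1216, 1055 and 1153 in Control IR, was the only one of the 35 whose groups did not overlap, being higher (groups apart and higher for 3.97% of all genes, apart and lower for 5.19%). Its log2 difference was 0.42 ± 0.15 (SE; 95% interval 0.10 to 0.74; limma adjusted p = 1). Mcam was lower by the fit, with a log2 difference of −0.38 ± 0.16 (SE; 95% interval −0.72 to −0.03; limma adjusted p = 1), and its groups overlapped. For Vim the log2 difference was 0.05 (95% interval −0.24 to 0.34), for Lox 0.33 (−0.21 to 0.87) and for Col1a1 0.04 (−0.96 to 1.04), which is the widest of these intervals.

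Among sham kidneys, VE-PTPiKO against Control, 0 of the 35 genes and 0 of all 16339 genes passed (percent called, 0), with 267 genes at an unadjusted p under 0.05. Over all genes edgeR called 0 and DESeq2 1, not one of the 35. The fitted differences of the 35 genes were nevertheless all above 0, with a median of 0.33 on the log2 scale, where 52.0% of all genes were above 0 with a median of 0.01. This was not particular to them. Also above 0 were 13 of 13 other basement membrane genes (median 0.249), 17 of 20 TGF-beta signalling genes (0.129) and 9 of 10 endothelial markers (0.106). Of 6 podocyte markers 0 were above 0 (median −0.062). The 35 genes share the same 6 libraries and rise and fall together in them, so that they are not independent. Without Control sham replicate 3 the median was 0.21 with 32 above 0, without Control sham replicate 1 it was 0.23 with 33, and without Control sham replicate 2, the library high in Malat1, it was 0.52 with 34. Col3a1 stood at 2793, 1422 and 1794 in VE-PTPiKO sham against 959, 1513 and 776 in Control sham, with overlap (log2 difference 0.89 ± 0.37, SE; 95% interval 0.09 to 1.69; limma adjusted p = 1). Groups did not overlap for 2 genes, both higher (apart and higher for 2.5% of all genes, apart and lower for 2.36%). Mgp stood at 1229.6, 1015 and 1010.3 in VE-PTPiKO sham against 798, 781 and 901 in Control sham, a log2 difference of 0.39 ± 0.17 (SE; 95% interval 0.03 to 0.75; limma adjusted p = 1). Acta2 stood at 1048, 915 and 885 against 745, 881 and 799 in the same order, a log2 difference of 0.23 ± 0.12 (SE; 95% interval −0.04 to 0.50; limma adjusted p = 1).

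**Figure D5:**
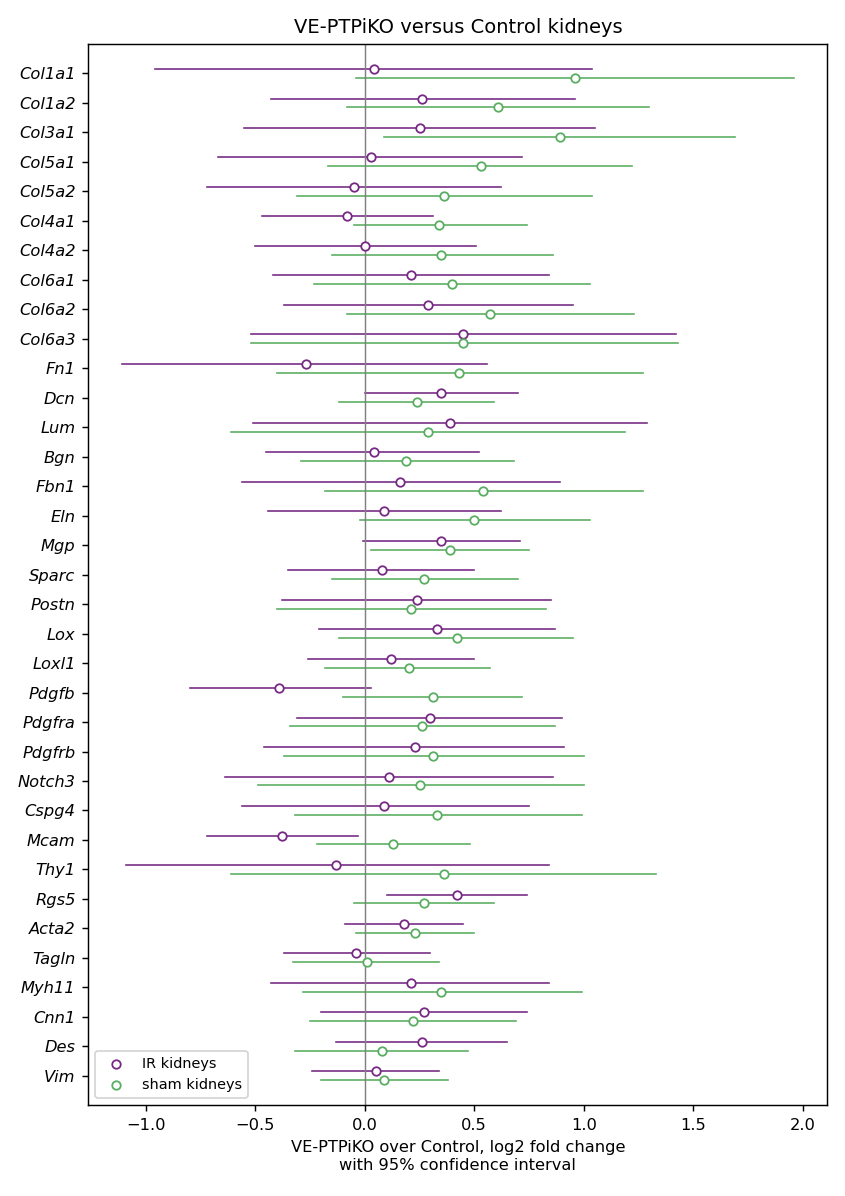
Log2 fold change, VE-PTPiKO over Control, of the 35 genes (rows) with 95% confidence intervals, in IR kidneys (purple, above) and sham kidneys (green, below). All points are open because none passed adjusted p under 0.05; in sham kidneys all 35 lie above 0, with a median of 0.33.

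The third comparison asked whether the response to IR differed between the genotypes, as the VE-PTPiKO response minus the Control response. None of the 35 genes and 0 of all 16339 passed in limma (percent called, 0), 432 genes had an unadjusted p under 0.05, and edgeR and DESeq2 each called 0. The median over the 35 genes was −0.16 on the log2 scale, with 7 above 0, beside −0.01 over all genes. It was −0.46 without VE-PTPiKO IR replicate 3, −0.41 without Control sham replicate 2, −0.31 without Control IR replicate 1, −0.10 without Control sham replicate 3, −0.06 without VE-PTPiKO IR replicate 1 and −0.02 without Control IR replicate 3. A median below 0 was not particular to the 35 genes. It was −0.263 over 13 other basement membrane genes (0 above 0) and −0.255 over 14 matricellular and provisional matrix genes (2 above 0). It was −0.213 over 20 TGF-beta signalling genes (4 above 0) and −0.152 over 17 contractile genes and regulators (4 above 0). Over 15 other fibroblast and pericyte markers it was 0.053 (9 above 0). Of the 35 genes, Pdgfb and Mcam had an unadjusted p under 0.05, and the others did not. For Vim the difference was −0.04 (95% interval −0.45 to 0.37) and for Lox −0.08 (−0.85 to 0.68).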

How the data were processed

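Whole-kidney RNA was extracted with Trizol and sequenced after TruSeq library preparation, per the labels. FastQC, STAR, HTSeq and DESeq2 and the mm10 genome are named, without versions, in the submitters' processing notes. The authors deposited 1 table per genotype with 6 libraries each. The signal that the authors deposited for each library is its gene counts after division by a size factor set within the table, as the values show. Whole reads were recovered for 100.0% of values within a tolerance of 0.02. Also deposited, per the file headers, are the authors' log2 fold changes, their p-values and a Wald score, which was not used. Of 23493 rows, 23286 genes were kept, after 182 identifiers listed more than once were reduced to 1 row each.

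IR was compared with sham inside each table by limma 3.58.1 (R 4.3.3) on log2(value + 1), with a trend and a minimum mean value of 1. Fold changes are on that scale and understate changes of low genes. Genotype contrasts and the interaction used the recovered reads of all 12 libraries, rescaled by the median of ratios over 14828 genes; the printed normalised counts use the same scaling. The Benjamini-Hochberg adjusted p had to be under 0.05 over all genes. Levels per kilobase used GENCODE M21 exon lengths. The scripts were tested on simulated data. Alternatives were TMM, other filters and pseudocounts, edgeR 4.0.16, DESeq2 1.42.0, a replicate block, a joint model of the 12 libraries, and omission of single libraries or of the 3 highest in Malat1; a correction for exon length was added after seeing the data. The members and lists were chosen with earlier results of these data known. All 35 members are named, and up to 4 called genes of largest change per other list, or, with none called, the 2 of largest change with a mean of at least 5 CPM.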

Additional observations from a re-analysis of the deposited data

How the results depend on the processing

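Of the 35 genes, 2 were called after IR in VE-PTPiKO. DESeq2 called 5 there (Lox, Mcam, Pdgfb, Vim and Col6a3) and 1 model of all 12 libraries called 4, and leaving out one library gave 0 to 5. In Control 5 were called, DESeq2 called 7, and leaving out one library gave 4 to 8. Over all genes the VE-PTPiKO count was 445. It was 1013 in DESeq2, 1019 in 1 model of all 12 libraries, 853 without the libraries highest in Malat1, 760 with the correction for exon length, and 126 (without VE-PTPiKO sham replicate 3) to 1925 (without VE-PTPiKO IR replicate 3) with one library left out. The Control count was 1870. It was 2203 in DESeq2, and 862 (without Control IR replicate 2) to 2010 (without Control sham replicate 2) with one library left out. The count test of edgeR on the recovered reads called 438 genes in VE-PTPiKO and 1867 in Control, with 2 and 5 of the 35. No called fold change turned its direction. For both genotype contrasts and the interaction the count stayed at 0 of the 35 genes in every alternative run.

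Replicate numbers are not stated to pair animals. Deviations of libraries with the same number correlated at 0.3, −0.2 and 0.04 in VE-PTPiKO and at 0.05, 0 and −0.06 in Control, and not every library correlated best with its own number. With a replicate block the counts were 3 of the 35 genes in VE-PTPiKO and 6 in Control, with Pdgfb (limma adjusted p = 0.0135) and Col4a1 (0.0411) added, and 0 for the genotype contrasts and the interaction. Over all genes the block gave 604 in VE-PTPiKO and 1805 in Control. Without the libraries highest in Malat1 the counts were 3 of the 35 genes in VE-PTPiKO (853 of all genes) and 7 in Control (2010 of all genes). Each comparison lost only its own libraries among the 3 highest in Malat1. In Control that was Control sham replicate 2 alone, so this run and the single omission of that library are the same alternative. With 3 libraries a group and the wide spread of the collagen genes, changes of these genes may have been missed. How large a change could be detected was not tested. Depth limits mainly Thy1 and Lum.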

Other observations

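Markers of other cell types that a whole kidney holds were read in the same comparisons of IR with sham. The keratin gene Krt20, which injured tubules make, rose 86.6-fold in VE-PTPiKO and 93.7-fold in Control (limma adjusted p = 7.74e-05 and 4.09e-06). Lcn2, a secreted injury marker, rose 3.09-fold in VE-PTPiKO and 7.6-fold in Control (0.0167 and 0.000459), and the keratin gene Krt8 rose 5.73-fold and 5.91-fold in the same order (0.000434 and 3.82e-06). Sox9, a repair transcription factor, rose 14.2-fold in Control (0.000146). Its fitted rise in VE-PTPiKO was 2.94-fold (limma adjusted p = 0.241). Of 7 macrophage markers, Cd68 rose 5.22-fold in VE-PTPiKO and 5.61-fold in Control (limma adjusted p = 0.00308 and 5.12e-05), and Lyz2 rose 2.19-fold in Control (0.0122). The other markers of this list were not called, with log2 fold changes of −0.11 to 0.41 in VE-PTPiKO, Lyz2 (0.91) apart, and −0.10 to 0.61 in Control. The summed macrophage level was 2219 to 2571 in VE-PTPiKO IR against 2090 to 2202 in VE-PTPiKO sham, and 2363 to 2550 in Control IR against 2009 to 2071 in Control sham.

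Of 10 endothelial markers, 0 passed in VE-PTPiKO and 1 in Control, Cdh5 (1.49-fold higher, limma adjusted p = 0.00562), where 7.48% of all genes were called higher. The list median was 0.014 in VE-PTPiKO, with 5 above 0, and −0.141 in Control, with 3 above 0. Flt1 had the largest fitted fall, log2 −0.41 ± 0.18 and −0.38 ± 0.12 in the same order (SE; limma adjusted p = 0.322 and 0.0574). The sum of the 10 markers was 15565 to 17237 in VE-PTPiKO IR against 16195 to 18243 in VE-PTPiKO sham, and 13839 to 16272 in Control IR against 15144 to 16411 in Control sham. Of 5 adipocyte markers, 0 passed in VE-PTPiKO and 1 rose in Control, Fabp4, which endothelium shares (1.42-fold, limma adjusted p = 0.0285). The others were between −0.61 and 0.18 on the log2 scale in Control, and the list median was −0.167 in VE-PTPiKO and 0.005 in Control. Of 5 medulla markers, 0 passed in VE-PTPiKO and 1 fell in Control, the urea transporter gene Slc14a2 (1.8-fold, limma adjusted p = 0.0202). The medulla medians were −0.137 in VE-PTPiKO and −0.296 in Control. No marker of podocytes (6 genes), mesangial cells (5), proximal tubule (6) or urothelium (5) passed in either genotype. The median log2 fold change was 0.08 in VE-PTPiKO and 0.06 in Control over the podocyte markers, 0.19 and 0.10 over the mesangial, −0.18 and −0.01 over the proximal tubule and 0.39 and −0.03 over the urothelial ones, in the same order. For each of these lists the 2 adequately expressed markers with the largest fitted change in either direction follow, so they do not stand for their list. Podxl had log2 fold changes of −0.04 ± 0.13 in VE-PTPiKO and −0.21 ± 0.11 in Control, and Magi2 −0.13 ± 0.18 and −0.22 ± 0.16 (SE). Of the mesangial markers, Gata3 had −0.61 ± 0.23 and −0.43 ± 0.16, and Pdgfrb, one of the 35 genes, 0.19 ± 0.30 and 0.28 ± 0.25. Of the proximal tubule markers, Lrp2 had −0.53 ± 0.36 and −0.48 ± 0.28, and Cubn −0.35 ± 0.30 and −0.28 ± 0.19, while the other 4 were between −0.27 and 0.15. Of the urothelial markers, Upk1a had 0.42 ± 0.32 and −0.37 ± 0.19, and Upk1b 0.15 ± 0.33 and −0.14 ± 0.18, while the less expressed Krt5 had 0.41 ± 0.38 and 0.88 ± 0.33. Skeletal muscle markers summed to at most 29 normalised counts in any library, with Myh4 at 0 in both IR groups.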
